A study of Mus musculus with 9 samples.

Results

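The 9 genes described here are the homeobox genes Tlx1, Nkx2-3, Msx1, Msx2, Six2 and Hmx1 and the T-box genes Tbx1, Tbx2 and Tbx3, taken by name from the 23366 gene entries of the RNA-seq count tables. They were selected on measured values, namely their on or off state in each of 2 mouse epithelial cell lines and their course over passage, so those values are described below without a test. mSGc is a spontaneously immortalized line of submandibular salivary gland epithelial cells, grown from the glands of adult male C57BL/6 mice, and IMOK is a line of immortalised mouse oral keratinocytes, also labelled C57BL/6. The data hold 6 mSGc libraries, with 1 each at P2, P4, P10 and P25 in progenitor medium and 1 each at P10 and P25 in differentiating medium, and 3 replicate IMOK libraries grown in IMOK medium at a passage labelled early. The study grew mSGc in serum-free and in serum-containing medium, and its serum-free medium is taken here to be the one labelled progenitor. Both lines are immortalized cultures rather than gland or mucosa, and cell line, medium and experiment cannot be told apart in any comparison of mSGc with IMOK. The study describes its IMOK cells as analysed at the passage number of P10 mSGc, so a comparison with all mSGc libraries also mixes passages.

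Homeobox and T-box genes encode transcription factors that bind DNA through the homeodomain or the T-box, and their combinations mark where along the embryo a tissue arose. Tlx1 is needed to form the spleen, Nkx2-3 acts in the gut, spleen, salivary glands and teeth, Msx1 and Msx2 act in teeth, skull and skin appendages, Six2 maintains nephron progenitors, and Hmx1 shapes the ear and sensory ganglia. Tbx1 patterns the pharyngeal arches and pouches, while the close relatives Tbx2 and Tbx3 are repressors that keep cell cycle inhibitor genes low.

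The homeoboxes of the 4 homeobox genes that were on in every mSGc library are printed to show how the counted genes differ from each other. Each sequence is the coding strand of mm9 over 180 bases, and capitals mark the codons of the recognition helix motif (codons 48 to 53 of the homeodomain's 60). The stretches lie at chr19:45228038-45230393 for Tlx1, where an intron between exons 2 and 3 is left out, at chr19:43688879-43689058 in exon 2 of Nkx2-3, at chr13:53563739-53563918 in exon 2 of Msx2 and at chr17:86086744-86086923 in exon 1 of Six2. Tlx1 and Nkx2-3 are on the plus strand and Msx2 and Six2 on the minus strand.
Tlx1: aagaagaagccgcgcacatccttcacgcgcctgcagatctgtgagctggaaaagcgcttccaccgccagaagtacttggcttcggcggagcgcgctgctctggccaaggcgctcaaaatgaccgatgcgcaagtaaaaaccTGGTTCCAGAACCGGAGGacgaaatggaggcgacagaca
Nkx2-3: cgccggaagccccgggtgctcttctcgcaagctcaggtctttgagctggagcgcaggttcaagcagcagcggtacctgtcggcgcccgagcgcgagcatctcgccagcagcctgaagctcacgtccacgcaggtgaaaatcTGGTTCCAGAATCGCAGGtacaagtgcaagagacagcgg
Msx2: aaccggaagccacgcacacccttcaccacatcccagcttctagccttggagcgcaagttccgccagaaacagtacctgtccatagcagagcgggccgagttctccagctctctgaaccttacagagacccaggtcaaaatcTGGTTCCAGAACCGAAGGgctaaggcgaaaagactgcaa
Six2: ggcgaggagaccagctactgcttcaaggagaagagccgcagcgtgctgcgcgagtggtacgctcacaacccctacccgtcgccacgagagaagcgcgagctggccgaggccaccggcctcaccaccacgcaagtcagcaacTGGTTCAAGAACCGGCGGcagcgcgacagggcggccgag
Nkx2-3 and Msx2 were the most alike of the 6 pairs, with 116 of 180 bases (64.4%) and 35 of 60 encoded residues shared. Six2 was the least like the rest, with 16 residues shared with Tlx1, 17 with Nkx2-3 and 16 with Msx2. Within the homeoboxes no pair of these 4 was identical over more than 17 bases, although Msx2 and Six2 shared a run of 48 bases elsewhere in their counted exons.

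The T-boxes of the 3 T-box genes were compared in the same way, over the 180 bases in which the encoded proteins were most alike without gaps. The stretches lie at chr16:18584180-18585138 (minus strand, exons 2 and 3 with the intron left out) for Tbx1, chr11:85648207-85648386 (plus strand, exon 2) for Tbx2 and chr5:120124120-120124299 (plus strand, exon 2) for Tbx3. Capitals mark the 36 codons that encode the same residue in all 3 genes.
Tbx1: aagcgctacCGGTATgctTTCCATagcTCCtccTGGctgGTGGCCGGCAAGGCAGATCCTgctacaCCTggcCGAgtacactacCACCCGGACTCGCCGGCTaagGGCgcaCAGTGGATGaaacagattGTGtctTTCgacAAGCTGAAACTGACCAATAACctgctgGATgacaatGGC
Tbx2: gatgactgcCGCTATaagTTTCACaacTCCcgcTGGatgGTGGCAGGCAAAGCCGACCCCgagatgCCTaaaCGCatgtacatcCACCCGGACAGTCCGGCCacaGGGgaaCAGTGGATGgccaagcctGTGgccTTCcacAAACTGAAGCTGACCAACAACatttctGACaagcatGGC
Tbx3: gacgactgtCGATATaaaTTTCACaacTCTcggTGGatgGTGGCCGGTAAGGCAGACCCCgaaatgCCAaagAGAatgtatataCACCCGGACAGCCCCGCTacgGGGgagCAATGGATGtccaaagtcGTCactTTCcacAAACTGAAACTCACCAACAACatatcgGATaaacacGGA
Tbx2 and Tbx3 shared 57 of 60 residues and 141 of 180 bases (78.3%), whereas each of them shared 36 residues with Tbx1. The longest identical run between Tbx2 and Tbx3 was 14 bases.

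The libraries held between 6237884 and 18444963 counts (P25 in differentiating medium and IMOK replicate 1), and 3 counts, the limit that a count of 0 allows, came to 0.163 to 0.481 CPM (counts scaled to library size). Levels are given as TPM, a per-transcript scale that sets counts per gene length and so allows genes to be compared within a library. IMOK replicate 1 stood apart from the other IMOK libraries, with a chi-square per degree of freedom of 150 and 180 against replicates 2 and 3 compared with 21.3 between those, and values without it are given beside the named genes whose call it changed or whose fitted fold it moved by over 1.5 times. The basal epithelial markers Krt5, Krt14, Trp63, Cdh1 and Epcam were on in every library of both lines. Summed endothelial markers stayed at or under 0.961 TPM, glial markers at or under 2.21 TPM and neuronal markers at or under 0.189 TPM in every library. Leukocyte markers summed to 1.88 to 4.15 TPM in mSGc and to 33.5, 8.90 and 4.66 TPM in IMOK, nearly all of it Cd68, while Ptprc, Csf1r and Cd3e were each at or under 0.112 TPM in every library. Cd68 was lower in mSGc (log2 difference -2.26, SE 0.56, adjusted p = 0.0248, edgeR), though not without IMOK replicate 1 (-1.15, adjusted p = 0.140, edgeR), and the part of such cells in the values of IMOK was not tested. Fibroblast markers summed to 25.7 TPM in mSGc at P2 and to between 1.29 and 7.56 TPM in the other 5, and to 24.9, 7.41 and 9.21 TPM in IMOK.

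A gene was called on in a line when every library of it had at least 1 TPM, and off when every library had at most 3 counts. By this rule 4 of the 9 genes were on in one line and off in the other, Tlx1 and Msx2 in mSGc and Hmx1 and Tbx1 in IMOK, as the choice of the genes fixed. Of all 23366 entries 94 (0.402%) were switched in this way, 28 on in mSGc alone and 66 on in IMOK alone. Of the 9, 8 had TPM ranges that did not overlap between the lines, and 22.3% of the 12885 genes tested between the lines had the same property. Since the genes were selected for this contrast, nothing is read from these counts.

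**Figure D1:**
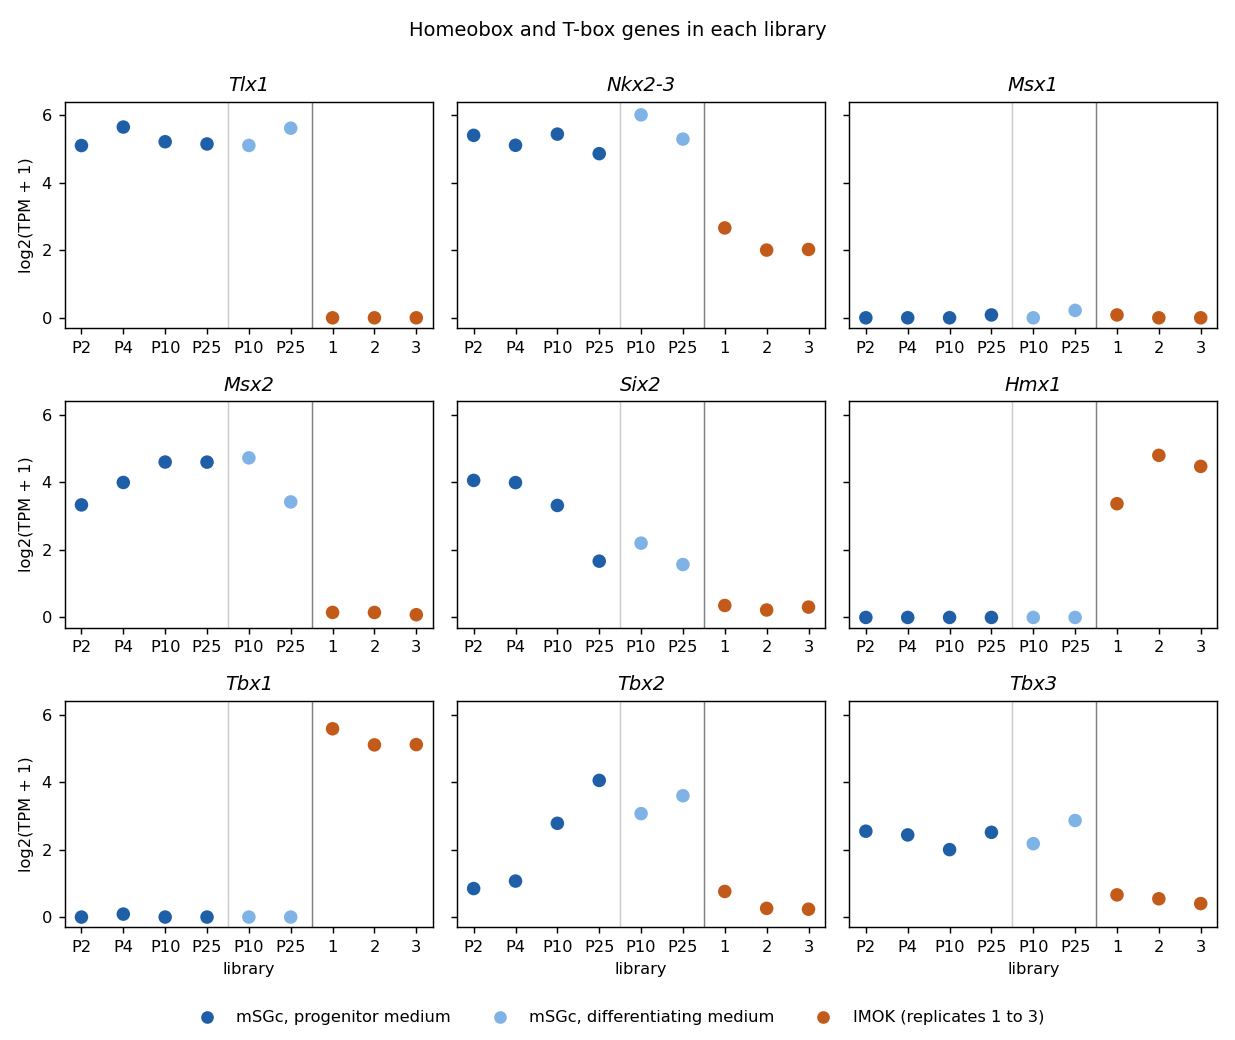
Level of each of the 9 genes as log2(TPM + 1) in each library, with 1 point per library; dark blue is mSGc in progenitor medium, light blue mSGc in differentiating medium and orange IMOK. Tlx1 and Msx2 stand high in all 6 mSGc libraries and at or near 0 in IMOK, Hmx1 and Tbx1 do the reverse, Msx1 is near 0 throughout, and Tbx2 and Six2 move in opposite directions with passage.

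Tlx1 (chr19:45225205-45231433) had 33.4, 49.3, 36.2 and 34.5 TPM in mSGc at P2, P4, P10 and P25 in progenitor medium and 33.5 and 48.2 TPM at P10 and P25 in differentiating medium. No Tlx1 read was counted in any IMOK library, against 2929 counts in mSGc. The mSGc level was thus at least 222-fold higher than the level that 3 counts per IMOK library would give, and it varied 1.48-fold among the 6 libraries. Its median of 35.4 TPM ranked at the 63.5th percentile of the 11614 genes with a median of at least 1 TPM in mSGc.

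Nkx2-3, the neighbour of Tlx1 on chromosome 19 at a distance of 1.53 Mb with 35 genes between them, was the other homeobox gene with a high and steady level. It had 41.4, 33.6, 42.5 and 28.1 TPM at P2, P4, P10 and P25 in progenitor medium and 63.6 and 38.3 TPM at P10 and P25 in differentiating medium. In IMOK it had 5.33, 3.02 and 3.07 TPM, so it was on in both lines, with means of 41.3 ± 12.2 (SD, n = 6) and 3.81 ± 1.32 TPM (SD, n = 3) and a ratio of 10.8. In mSGc the means of Nkx2-3 and Tlx1 (39.2 ± 7.48 TPM, SD, n = 6) differed by less than the spread among libraries of either gene. Both genes lay higher in mSGc although the median gene of chromosome 19 had a log2 difference of -0.55 between the lines (466 genes), where the median over all genes was 0.00.

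Msx2 and its relative Msx1 had different states. Msx2 (chr13:53562250-53568149) had 9.09, 15.0, 23.3 and 23.3 TPM at P2, P4, P10 and P25 in progenitor medium and 25.5 and 9.72 TPM at P10 and P25 in differentiating medium, with 2, 2 and 1 counts in the IMOK libraries. The ratio of mSGc to IMOK was 194 on mean TPM and 219 on counts pooled per line and scaled to library size. The latter had a 95% exact interval of 93.5 to 675 that covers counting error only. Msx1 (chr5:38211730-38215824) had 1 count in each of the P25 libraries and in IMOK replicate 1 and 0 in the other 6, so it was off in both lines and no fold is given. The antisense gene Msx1as, which overlaps Msx1, had 0 TPM in all 9 libraries. The strand setting is not given, so it is not known how reads over the bases shared by both genes were counted. The off state of Msx1 is thus that of the deposited counts.

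Six2 (chr17:86083608-86087594) had lower levels in mSGc libraries of later passage, from 15.7 TPM at P2 and 15.0 at P4 to 8.97 at P10 and 2.18 at P25 in progenitor medium. The differentiating medium libraries had 3.60 TPM at P10 and 1.96 at P25. P2 was thus 7.21-fold higher than P25 in progenitor medium, and the slope per doubling of the passage number was -0.69 ± 0.20 on the log2 scale (SE). As the genes were chosen on such values, the SEs of their slopes and line differences describe the fit and are not read as a test. In IMOK the gene had 0.278, 0.165 and 0.237 TPM from 5, 3 and 4 counts, so it lay between on and off there. The summed fibroblast markers were also highest at P2, through Col1a1, Col1a2 and Mmp2, whereas Col3a1, Lum and Twist2 had their highest mSGc level at P25 and Dcn at P10 in differentiating medium. The part of other cells in the Six2 values was not tested, and in bulk RNA fewer cells of a type and less RNA per cell cannot be told apart.

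Hmx1 (chr5:35731766-35735521) was the homeobox gene found in IMOK alone among the 9, with 9.34, 26.9 and 21.3 TPM from 120, 350 and 257 counts. No Hmx1 read was counted in the 6 mSGc libraries, which puts mSGc at least 52.0-fold lower. IMOK replicate 1 had the lowest level of the 3, 2.88-fold below replicate 2. The gene lies 2.48 Mb from Msx1 on chromosome 5, and the median gene of that chromosome had a log2 difference of -0.56 between mSGc and IMOK (823 genes).

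Among the T-box genes Tbx1 (chr16:18581806-18587062) had the state of Hmx1. It had 46.8, 33.4 and 33.6 TPM in IMOK and a single count, at P4, in the 6 mSGc libraries. On counts pooled per line and scaled to library size, the ratio of IMOK to mSGc was 2282, with a 95% exact interval of 409 to 90190. The neighbour Gnb1l, 15034 bases away, was on in both lines with 8.08 to 15.2 TPM in mSGc and 6.74 to 7.62 TPM in IMOK.

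Tbx2 and Tbx3, which encode 57 of 60 shared residues in the printed stretch, had different courses. Tbx2 (chr11:85646117-85655450) had 0.796, 1.09, 5.86 and 15.6 TPM at P2, P4, P10 and P25 in progenitor medium and 7.37 and 11.1 TPM at P10 and P25 in differentiating medium. The P25 level in progenitor medium was 19.5-fold that at P2, and each library of a later passage lay above each library of an earlier one, with a slope of 1.23 ± 0.16 per doubling of the passage number on the log2 scale (SE). In IMOK Tbx2 had 0.692, 0.195 and 0.175 TPM, so that replicate 1 came close to mSGc at P2. The log2 difference between the lines was 4.58 ± 1.14 (SE), and 5.40 ± 1.44 without IMOK replicate 1.

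Tbx3 (chr5:120120678-120134610) had 4.83, 4.40, 2.99 and 4.70 TPM at P2, P4, P10 and P25 in progenitor medium and 3.51 and 6.27 TPM at P10 and P25 in differentiating medium. Its slope was 0.08 ± 0.16 per doubling (SE), and its IMOK levels were 0.577, 0.456 and 0.319 TPM. Tbx2 thus made up 14.1% and 19.9% of the summed TPM of the pair at P2 and P4, and 66.2% and 76.8% at P10 and P25 in progenitor medium. The differentiating medium libraries gave 67.7% at P10 and 63.9% at P25, and IMOK gave 54.5%, 29.97% and 35.4% of a much lower sum. The earliest passages were therefore the mSGc libraries in which Tbx3 exceeded Tbx2.

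**Figure D2:**
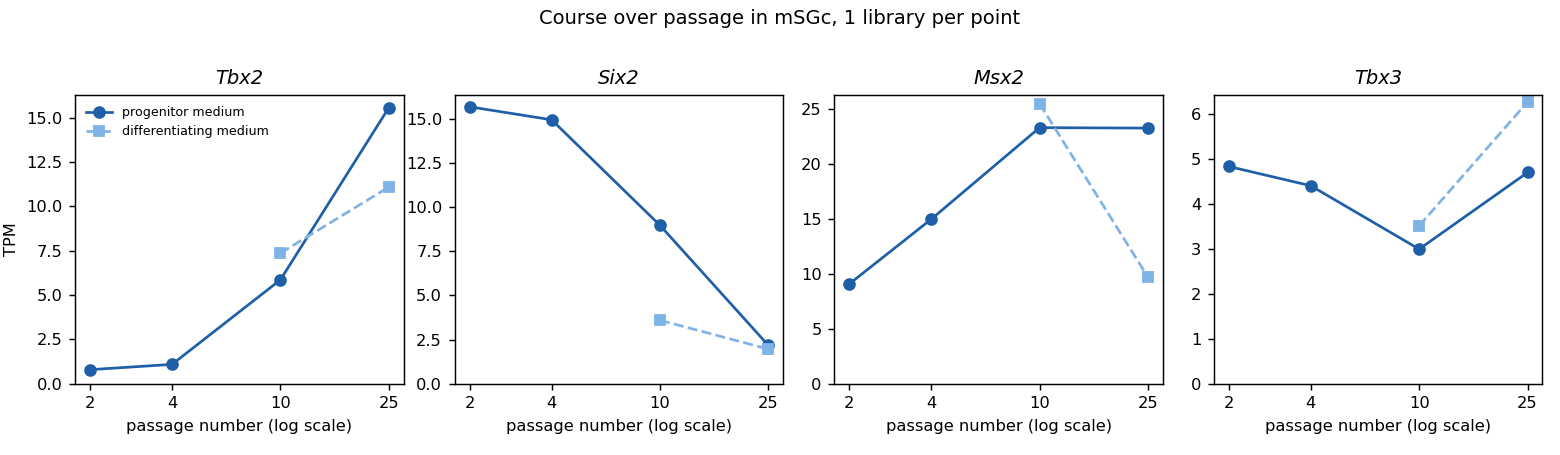
TPM of Tbx2, Six2, Msx2 and Tbx3 in mSGc against the passage number on a log scale, with 1 library per point, circles for progenitor and squares for differentiating medium; each panel has its own axis from 0. Tbx2 climbs from 0.796 to 15.6 TPM and Six2 drops from 15.7 to 2.18 TPM in progenitor medium, while Tbx3 stays between 2.99 and 6.27 TPM over all 6 libraries.

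Ordered by the mean over all 6 libraries, mSGc held Nkx2-3 and Tlx1 first, then Msx2 (17.7 ± 7.34 TPM), Six2 (7.89 ± 6.29), Tbx2 (6.96 ± 5.74) and Tbx3 (4.45 ± 1.14, SD, n = 6 each). The means of Six2 and Tbx2, and of Tbx2 and Tbx3, differed by less than the SD of the more variable gene of each pair. The order changed with passage, since at P2 Six2 exceeded Msx2 and Tbx2 was the lowest of the 6, whereas at P25 Tbx2 exceeded Six2 in both media. IMOK held Tbx1 (37.9 ± 7.72 TPM) and Hmx1 (19.2 ± 8.97) first and then Nkx2-3, with Tbx3, Tbx2, Six2 and Msx2 all under 1 TPM. The 6 homeobox genes summed to 88.2 to 126 TPM in mSGc and to 15.1 to 30.2 TPM in IMOK, and the 3 T-box genes to 5.56 to 20.3 TPM and 34.0 to 48.1 TPM.

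Medium was the contrast that the choice of the genes did not use, and it was tested with edgeR's quasi-likelihood test with the log2 passage number in the fit. Of all 12451 genes 3 (0.0241%) were called at an adjusted p of 0.05, all higher in differentiating medium. None of the 6 genes that passed the filter on low counts was called, none had an unadjusted p under 0.05, and DESeq2 called 0 as well. Six2 had the largest estimate, with a log2 change of -0.95 (SE 0.52, 95% interval -2.18 to 0.28, adjusted p = 0.752, edgeR). Nkx2-3 had 0.47 (SE 0.26, interval -0.13 to 1.08, adjusted p = 0.752, edgeR) and Msx2 had -0.34 (SE 0.49, interval -1.50 to 0.82, adjusted p = 0.918, edgeR).

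For Tlx1, Tbx2 and Tbx3 the medium estimates lay closer to 0, at -0.11 (interval -0.94 to 0.72), -0.01 (-1.05 to 1.02) and -0.03 (-1.14 to 1.08) on the log2 scale. These intervals still allow changes of about a doubling or halving for the T-box pair. In the 4 libraries of P10 and P25 alone, with passage as a block, the adjusted p-values from edgeR ranged from 0.567 for Msx2 to 0.970 for Tlx1. Msx1, Hmx1 and Tbx1 did not pass the filter in mSGc and were not tested. Where cultures were not stated to be separate, such p-values measure only the spread between these libraries.

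**Figure D3:**
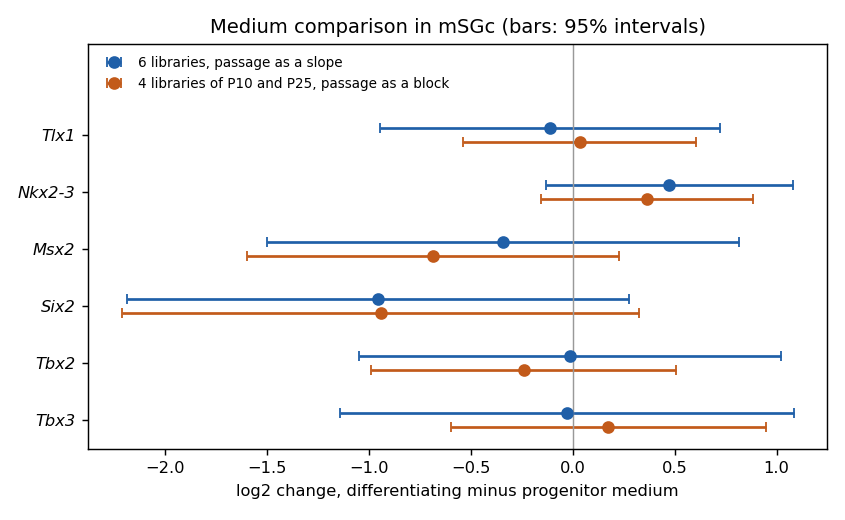
Log2 change in differentiating against progenitor medium for the 6 genes tested in mSGc, with 95% intervals as bars; blue is the fit of all 6 libraries and orange the fit of the 4 libraries of P10 and P25. Every interval includes 0, and Six2 has the widest, from -2.18 to 0.28 in the 6 libraries.

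The other 162 homeobox and T-box genes in the table give the setting. In mSGc 14 were on and in IMOK 30, with 12 on in both and 82 off in both. One of them, the NK gene Nkx2-9, had the state of Tlx1, and 6 had that of Tbx1, among them Tbx18, Hoxa3, Hoxa10, Hoxb6 and Hoxb8. Nkx2-9 is a relative of Nkx2-3 and had 3.55 to 17.4 TPM in mSGc and 0, 0.185 and 0.0993 TPM in IMOK.

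Between the lines 14.8% of all 12885 genes tested were called, 6.53% as higher and 8.24% as lower in mSGc. Of the 162 genes 48 passed the filter, which a gene present in one line alone can pass, and 5 of those were called higher and 14 lower in mSGc. Among those of the 162 with at least 10 counts in every library 2 were called higher and 0 lower. With the P10 libraries as the only mSGc libraries 4 were called higher and 5 lower, without IMOK replicate 1 the counts were 8 and 15, and with library size as the only scaling 4 and 14. With that scaling the median gene moved by -0.11 (log2), and 32.6% of all calls were higher in mSGc instead of 44.2%.

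Hox genes, which set position along the trunk axis, were called between the lines in 1 direction only. Of 39, 1 was on in mSGc against 10 in IMOK, all from the Hoxa and Hoxb clusters. Of the 39, 11 passed the filter, and 7 were called lower in mSGc and 0 higher by edgeR and by DESeq2, with 9 at an unadjusted p under 0.05. Over all genes tested 8.24% were called lower by edgeR. A gene almost absent from mSGc passes the filter through IMOK and can then only be called lower, so nothing is read from this direction. Hoxb6 had 0 counts in every mSGc library and 11.0, 2.28 and 2.26 TPM in IMOK (adjusted p = 0.0111, edgeR), and Hoxb3 had 0 and 5.87, 0.561 and 0.369 TPM (adjusted p = 0.0255, edgeR). In both, IMOK replicate 1 had the highest level, and without it Hoxb6 was still called (adjusted p = 0.0207, edgeR) while Hoxb3 did not pass the filter. Hoxa10 had at most 0.0374 TPM in mSGc and 2.99, 1.88 and 2.06 TPM in IMOK (adjusted p = 3.7e-04, edgeR).

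Among paired-like genes Pitx1, known from the stomodeum, pituitary and hindlimb, was on in every library, at 115 to 186 TPM in mSGc and 71.0 to 87.9 TPM in IMOK, and was called higher in mSGc (log2 difference 1.05, SE 0.18, adjusted p = 0.00446, edgeR). Pax3, a factor of neural crest and muscle precursors, had at most 0.329 TPM in mSGc and 13.3, 7.23 and 5.90 TPM in IMOK (adjusted p = 0.00176, edgeR). In contrast Lmx1b, a LIM homeobox gene of dorsal limb and kidney, had 0 counts in IMOK and 0.310 to 4.96 TPM in mSGc (adjusted p = 0.0126, edgeR). Its lowest mSGc level was at P2, and progenitor medium had 4.73 TPM at P25 (slope over passage 0.91, adjusted p = 0.180, edgeR). Pax3 and Lmx1b each passed the filter through the line that held them and could only be called higher there. Nothing is read from the direction of these calls.

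The Iroquois genes Irx2 and Irx5 were also higher in mSGc, where Irx2 had 53.9 to 96.4 TPM against 13.4 to 19.3 in IMOK (log2 difference 2.33, SE 0.23, adjusted p = 2.5e-04, edgeR). Irx5 differed less (log2 difference 1.09, SE 0.31, adjusted p = 0.0407, edgeR), and IMOK replicate 1 at 14.9 TPM lay within its mSGc range of 13.02 to 22.6 TPM. Irx1 was on in all libraries and overlapped between the lines, with 58.1 to 191 TPM in mSGc and 14.6 to 68.3 TPM in IMOK, and it was not called with all libraries (log2 difference 1.67, adjusted p = 0.0689, edgeR) but was called higher in mSGc without IMOK replicate 1 (2.58, adjusted p = 0.0148, edgeR).

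**Figure D4:**
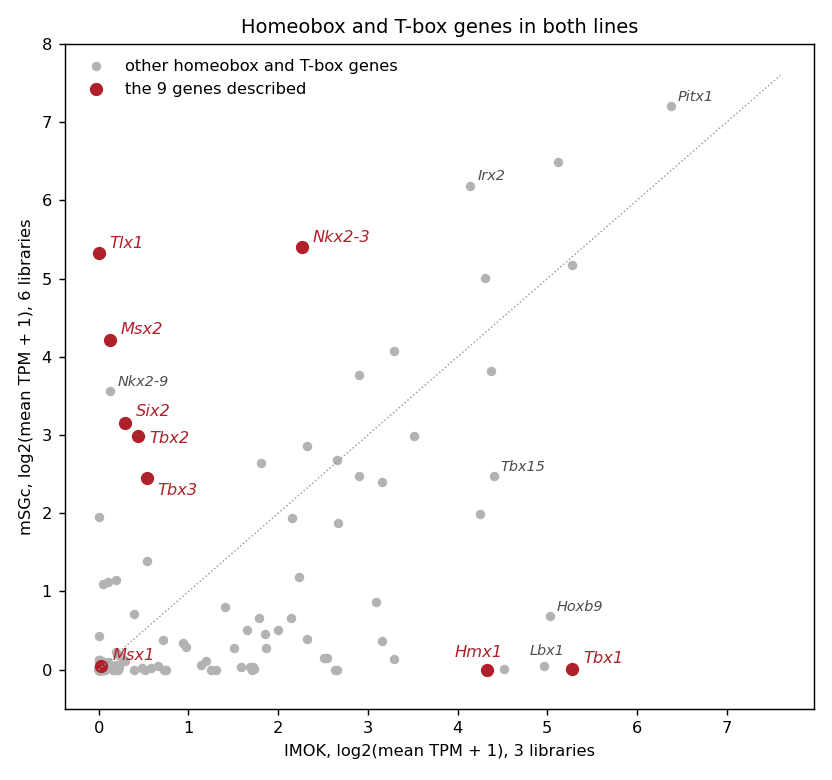
Mean level of each homeobox and T-box gene as log2(mean TPM + 1), with IMOK (3 libraries) on the horizontal and mSGc (6 libraries) on the vertical axis; red points are the 9 genes described, grey points the other 162, and the dotted line marks equal levels. Tlx1, Msx2 and Nkx2-9 lie along the mSGc axis, Hmx1 and Tbx1 along the IMOK axis, and the mean of Lbx1 comes from 90.6 TPM in IMOK replicate 1 alone.

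Other close relatives of the 9 genes were mostly silent. Tlx2, Hmx3, Nkx2-6, Tbx4 and Tbx10 had 0 TPM in all 9 libraries, and Nkx2-5 and Tbx5 stayed at or under 0.154 and 0.201 TPM. Tlx3 reached 1.03 TPM in mSGc and 0 in IMOK. Hmx2 was on in IMOK like Hmx1, at 4.29, 3.68 and 2.32 TPM, but it also reached 1.62 and 1.53 TPM in the P25 mSGc libraries. Msx3 reached 3.20 TPM at P25 in differentiating medium and stayed at or under 0.109 TPM in IMOK. Six4 was on in every library, at 2.96 to 12.1 TPM in mSGc and 7.37 to 16.4 TPM in IMOK.

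Of the genes that lie within 50 kb of the 9, those at 1 TPM or more in every library of a line were on in both lines. Slc25a28, 47910 bases from Nkx2-3, had 23.5 to 38.0 TPM in mSGc and 47.1 to 62.2 TPM in IMOK. Bcas3, 6557 bases from Tbx2, had 6.98 to 16.3 TPM in mSGc and 6.04 to 18.2 TPM in IMOK. The noncoding gene 2610027K06Rik, whose body ends 227 bases from Tbx2 on the other strand, stayed at or under 0.958 TPM. Near Msx2, Hmx1 and Tbx3 the neighbours Gm2762, 4930478P22Rik, Gm16063 and Gm16065 stayed at or under 0.242 TPM, and near Tbx1 the platelet gene Gp1bb at or under 0.225 TPM. One further neighbour of Tbx1 is listed under a name turned into a date and was on in both lines.

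The partner proteins through which homeodomain factors act were compared as well. TALE cofactors bind DNA beside Hox and other homeodomain proteins. Of 9 such cofactors 2 were called higher and 1 lower in mSGc, where 6.53% and 8.24% of all genes tested were. Meis1 had 27.0 to 59.4 TPM in mSGc and 5.69 to 8.59 TPM in IMOK (log2 difference 2.71, SE 0.29, adjusted p = 4.2e-04, edgeR), and Meis2 had 21.7 to 53.4 and 3.46 to 7.86 TPM (2.93, SE 0.33, adjusted p = 5.4e-04, edgeR). Pbx2 was on in all libraries.

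Eya proteins are coactivators of Six2 and its relatives. Eya1 had at most 0.130 TPM in mSGc and 20.7, 6.19 and 5.48 TPM in IMOK (log2 difference -7.77, adjusted p = 6.98e-04, edgeR, and -7.00 and 0.00250 without IMOK replicate 1). IMOK, where Six2 was low, thus held the higher Eya1. Eya1 passed the filter through IMOK and could only be called lower in mSGc, so nothing is read from the direction of its call. Eya2 and Eya3 were on in every library, at 27.0 to 112 and 19.1 to 24.9 TPM in mSGc and 113 to 316 and 25.2 to 27.7 TPM in IMOK. Over all 19 tested partners, TALE, Eya, Dach and Groucho together, 3 were called higher and 3 lower, and the Groucho relatives Tle3 and Aes were on throughout.

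In the passage comparison within mSGc 0.506% of the 12451 genes were called, 6 rising and 57 falling. Of the 31 other homeobox and T-box genes tested, 2 were called, both rising. Tbx15, a T-box gene of limb and skin mesenchyme, had 0, 0.0937, 1.52 and 8.01 TPM at P2, P4, P10 and P25 in progenitor medium and 5.01 and 12.7 TPM at P10 and P25 in differentiating medium (slope 2.15, SE 0.28, adjusted p = 0.0389, edgeR). Its IMOK level was higher still, at 28.1, 16.6 and 15.7 TPM. Shox2 had 0.712, 0.979, 4.10 and 13.6 TPM in progenitor medium and 3.18 and 9.002 TPM in differentiating medium (slope 1.29, SE 0.18, adjusted p = 0.0438, edgeR). So both had their lowest level at P2 and their P25 levels above those at P10 in each medium, as Tbx2 did.

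These calls were not kept in every fit that left out a library. With P2, P4 or P25 of the progenitor medium series left out, neither Tbx15 nor Shox2 was called, with adjusted p-values from edgeR of 0.131 to 0.423. In those fits 0, 4 and 0 of all genes tested were called over passage. With all mSGc libraries DESeq2 called Tbx15 and Shox2 as rising, with adjusted p-values of 3.3e-08 and 9.6e-07 (DESeq2). Without P10 in differentiating medium or P25 in differentiating medium 1 of the 31 was called, and without P10 in progenitor medium 4 were. Their slopes kept their sign in each of these, from 1.98 to 2.47 for Tbx15 and from 1.19 to 1.42 for Shox2. None of the 17 partners tested was called over passage by edgeR, with 2 at an unadjusted p under 0.05 and 1 called by DESeq2, and neither the 31 nor the 17 gave a call in the medium comparison, with 3 and 2 at an unadjusted p under 0.05 and 0 by DESeq2.

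The 6 listed genes known as repressed by T-box factors were followed beside Tbx2, whose effect on them was not tested. Cdkn1a, which encodes the cell cycle inhibitor p21, had 592, 415, 389 and 207 TPM at P2, P4, P10 and P25 in progenitor medium and 409 and 177 TPM at P10 and P25 in differentiating medium. Cdkn2a, which encodes the p16 and Arf inhibitors, had 90.0, 75.2, 54.2 and 18.2 TPM, and 35.2 and 14.9 TPM in differentiating medium. Cdkn2b had 92.5, 48.7, 59.9 and 20.4 TPM, and 57.1 and 18.5 TPM. All 3 inhibitor genes had their highest level at P2 and their lowest at P25.

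By edgeR none of the 6 was called over passage, with 3 at an unadjusted p under 0.05. The slopes per doubling were -0.37 ± 0.10 for Cdkn1a (SE, adjusted p = 0.184, edgeR), -0.58 ± 0.12 for Cdkn2a (adjusted p = 0.110, edgeR) and -0.51 ± 0.14 for Cdkn2b (adjusted p = 0.193, edgeR). DESeq2 called these 3 as falling, with adjusted p-values of 0.0114, 0.00123 and 0.0273 (DESeq2), among 579 genes that it called falling and 121 rising. Cdh1 and Ndrg1 had slopes within their errors of 0, at -0.09 ± 0.13 and -0.12 ± 0.15.

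Between the lines the calls among the same 6 genes went in both directions. Cdkn1a was higher in mSGc, with 49.1, 46.8 and 25.1 TPM in IMOK (log2 difference 3.39, SE 0.41, adjusted p = 9.7e-04, edgeR), and so was Cdh1, with 358 to 778 TPM in mSGc and 258 to 315 TPM in IMOK (1.29, SE 0.27, adjusted p = 0.0131, edgeR). Cdkn2a was lower in mSGc, with 423, 204 and 180 TPM in IMOK (-2.25, SE 0.51, adjusted p = 0.0167, edgeR), but without IMOK replicate 1 it was not called (-1.86, adjusted p = 0.0538, edgeR). Cdkn2b and Ndrg1 did not pass the test.

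**Figure D5:**
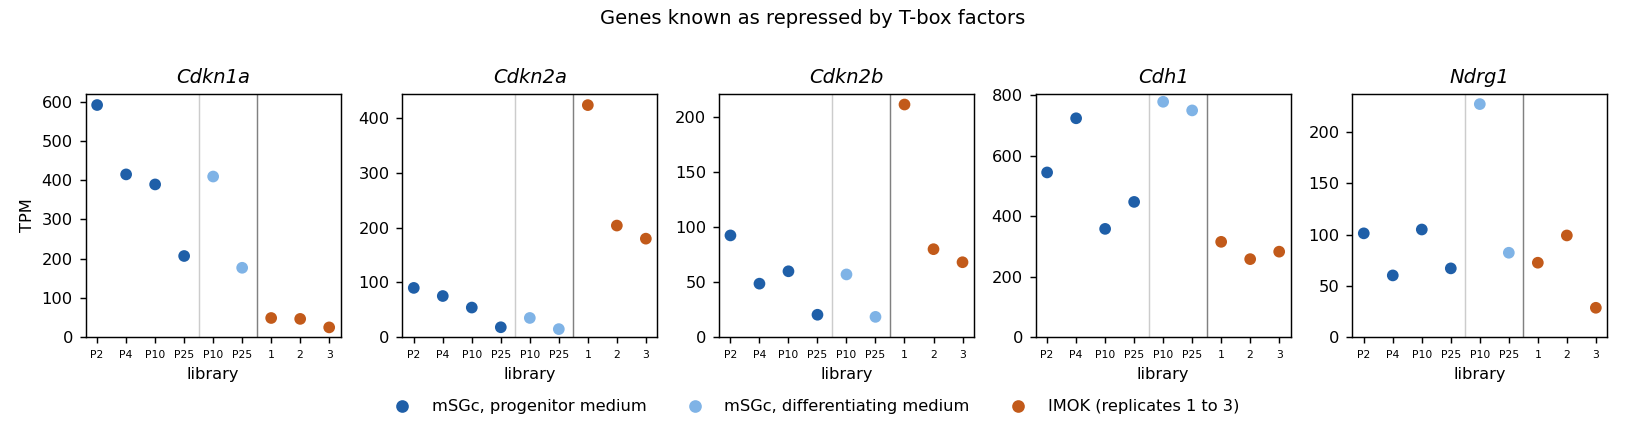
TPM of 5 genes known as repressed by T-box factors in each library, colours as for the 9 genes by library and each panel with its own axis from 0. Cdkn1a, Cdkn2a and Cdkn2b have their highest mSGc level at P2 and their lowest at P25, while Cdh1 and Ndrg1 show no such order.

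The genes whose log2(TPM + 1) ran closest to Tlx1 over the 9 libraries, among 13306 genes, were Rnf219 (Pearson r = 0.993), Fam111a (0.990) and Fam212b (0.989). Those closest to Hmx1 were 1810007C17Rik (0.999) and Syt14 (0.998). Such values arise from any gene that differs between the lines, as the libraries of a line lie together. Within the 6 mSGc libraries, among 12558 genes, 4933427D14Rik (0.994), Pkn3 (0.981) and Rfxap (0.976) were closest to Tbx2, and Six2 ran against it (-0.944), over libraries that share the order of passage.

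The 250 bases before the outermost start of each of the 9 genes, by the deposited coordinates (mm9), were compared for features that the choice of the genes did not use. They held 14 to 48 CpG dinucleotides, with a median of 22, against a median of 10 over the 23166 windows of all genes and 14 over the 162 other homeobox and T-box genes. Tbx1 had the most, 48, at the 99.7th percentile of all windows, and Nkx2-3 and Tlx1 the fewest, 14 and 15. The homeodomain core motif TAATTA, searched on both strands, was in the window of Msx2 alone, where 4.42% of all windows hold it. The T-box motif AGGTGTGA and the Nkx2 motifs CACTTGA and CACTTAA, searched on both strands, were in none of the 9 windows and in 0.907%, 2.58% and 1.83% of all. Msx1, off in both lines, had 20.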

How the data were processed

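The 6 RNA-seq libraries of mSGc and 3 of IMOK were analysed, with a group for each title in the labels. Whether the 3 IMOK replicates were separate cultures is not stated. The authors aligned reads to mm9 with TopHat2 2.1.1 and Bowtie2 2.2.6, counted them per gene with featureCounts 1.5.1 and listed DESeq2 1.12.4 (submitters' processing notes). The deposited values are raw counts without normalization. Annotation, strand setting and treatment of multiply mapped reads are not given in the sources used here, so overlapping genes on both strands cannot be told apart. Names of 27 entries had turned into dates.

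TPM was computed from counts and the deposited gene lengths. Counts were tested in R 4.3.3 with edgeR 4.0.16 (quasi-likelihood test, TMM, filterByExpr, robust) and Benjamini-Hochberg adjustment over all genes at 0.05: mSGc against IMOK, and passage (log2) with medium in 1 fit of the 6 mSGc libraries. Standard errors are the log2 change over the square root of F. DESeq2 1.42.0, library size scaling, other filters, subsets and single libraries left out were alternatives. Python 3.11.15, pandas 2.3.3, numpy 2.4.6 and scipy 1.17.1 served the rest. The tests were checked on simulated counts, drawn from the mean of each gene with a spread fitted to its expression level. These counts held no spread particular to a gene and no library set apart like IMOK replicate 1. For mSGc against IMOK 92.5% of 200 genes changed by a log2 of 3 were recovered among 12660. For passage 94.0% of 199 genes with a slope of 1 were recovered among 12291, and for medium 88.0% of 200 genes changed by 3 among 12274. Of the unchanged genes 6, 8 and 9 were called for line, passage and medium. Changes as small as the medium estimates of the genes described were not simulated.

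The 9 genes and all lists were chosen with earlier results of these data known. From the lists of other homeobox and T-box genes and partners, up to 6 genes per direction and comparison with the largest change among those called at 2 TPM or more are named, with those at 10 TPM or more in every library, the targets, the close paralogs, neighbours within 50 kb (gene bodies under 2 Mb) and the 3 genes most like Tlx1, Hmx1 and Tbx2 (at least 10 counts in 2 libraries). Other names were chosen after their values were seen, among them Hoxa3, Hoxb8, Tbx18, Lbx1 and single fibroblast and leukocyte markers. Intervals and limits at 0 counts cover counting error only. Some items that these rules would name are not reported here.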

Additional observations from a re-analysis of the deposited data

Results flagged for a closer look

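On log2(TPM + 1) the change of Tlx1 from P10 to P25 had opposite signs in the 2 media, though it was small in progenitor medium. On CPM progenitor medium had 38.0 at P10 and 38.6 at P25, so the opposite signs depend on the scale. In progenitor medium the log2(TPM + 1) of Tlx1 was lower at P25 by 0.07, and in differentiating medium it was higher at P25 by 0.51, a difference of 0.58. Each value rests on 1 library per passage and medium, and the difference was not tested. No library stood far from the other 5 in mSGc for any of the 6 genes with more than 3 counts in a library, by Dixon's criterion on log2(TPM + 1). The criterion was not applied to Msx1, Hmx1 and Tbx1, which had at most 1 count in any mSGc library.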

How the results depend on the processing

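Of 114 alternative values of the log2 difference between the lines for the 8 genes tested, 109 lay within 1 SE of the reported value and 5 did not, and of 66 passage slopes of 6 genes 62 did and 4 did not, the cause not being tested. No medium test of the same 6 genes passed the threshold in any of its 66 alternatives, with a lowest adjusted p of 0.300 (Nkx2-3). The 4 on or off switches held at 0.5 and 5 TPM and without each library, and Six2 became a 5th when off was set at 10 counts. DESeq2 called 2900 genes between the lines, 700 over passage and 271 between media, and 8 other homeobox and T-box genes higher in mSGc and 5 over passage. With at least 10 counts in every library, which tests fewer genes, 3 were called over passage and 1 between media, and of the other homeobox and T-box genes 2 higher, 0 lower and 0 over passage. With no filter 162 and 31 genes were called over passage and between media. Fewer libraries gave 485 (P10) and 1263 (progenitor medium) genes between the lines, with 5 other homeobox and T-box genes lower at P10, and 28 genes over passage in progenitor medium, 1 of them a homeobox or T-box gene. The passage number without log2 gave 103 and 0, and library size scaling gave 1 homeobox or T-box gene over passage. The 4 libraries of P10 and P25, with passage as a block, gave 141 genes between media. Leaving out 1 library gave 740 (without IMOK replicate 2) to 1913 genes between the lines, 0 to 335 over passage and 0 to 54 between media. Of the other homeobox and T-box genes it gave 4 to 8 higher, 10 to 15 lower and 0 to 4 over passage. The labels number replicates in IMOK alone, so no pairing by replicate was possible. Depth limits Tbx1, Hmx1 and Msx1 in mSGc to statements about counts near 0.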
